A study of Homo sapiens with 2 samples.

Results

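The genes of translesion synthesis were compared between cisplatin-treated control and FZR1 ko cells. The list holds 10 genes, chosen by name and role and not by level, out of 23033 genes with a value. They are the Y-family polymerases POLH, POLI, POLK and REV1, the polymerase zeta genes REV3L and MAD2L2, the RAD18 pathway genes RAD18, UBE2A and UBE2B, and the primase-polymerase PRIMPOL. All 10 reached 1 FPKM in at least 1 library and were among the 13554 genes kept on that rule. FPKM scales fragments by the length of the transcript and the fragments mapped in each library, so levels of different genes can be set side by side.

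RNAseq was performed on total RNA of 2 samples labelled T-47D, a luminal breast cancer cell line. One was labelled WT, called control here, and the other FZR1 ko, and both were labelled with cisplatin at 2 µg/ml. The ko line was made with CRISPR/Cas9 from lentivirus and grown from a single cell, so it is 1 clone, and the exposure time of these samples is not given in the sources used here. There was 1 library per condition and no untreated library was used here, so no value below has a replicate error, no test was made, and cells and libraries cannot be told apart as the source of a difference. The depth of the libraries is unknown, because FPKM holds no counts. FZR1, the targeted gene, had 12.3 FPKM in control and 10.1 in FZR1 ko, which does not check the label, since a small insertion or deletion can leave the mRNA in place. Of 11 luminal markers 6 reached 1 FPKM, and all 11 summed, mainly through KRT8 and KRT18, to 1500 FPKM in control and 1840 in FZR1 ko. ESR1, PGR, GATA3, CDH1 (E-cadherin) and KRT19 were below 1 FPKM in both libraries, while XBP1 had 93.4 and 72.6 FPKM (log2 ratio -0.36), FOXA1 5.07 and 4.65 FPKM and TFF1 9.80 and 7.52 FPKM. Of 7 basal and mesenchymal markers 5 reached 1 FPKM, among them VIM with 315 and 295 FPKM (-0.09), and the basal keratins KRT5 and KRT14 did not, where 13554 of the 23033 genes with a value did. The luminal label was thus met by some of its markers and not by ESR1, PGR, GATA3, CDH1 or KRT19. VIM, a mesenchymal marker, had a high level in both libraries. Of the luminal markers kept 3 were higher and 3 lower in FZR1 ko. Of the basal and mesenchymal ones 3 were higher and 2 lower, where 49.6% of all genes kept were higher. At least 2-fold apart were EPCAM, with 3.90 and 11.5 FPKM, and the cadherin CDH2, with 2.97 and 15.3 FPKM. Of all genes kept 13.5% were at least 2-fold apart.

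Cisplatin crosslinks neighbouring bases of DNA, and the polymerases that copy the genome stall at such lesions. In translesion synthesis the ubiquitin ligase RAD18, with the E2 enzyme RAD6 (encoded by UBE2A and UBE2B), adds ubiquitin to PCNA, the sliding clamp, and a Y-family polymerase is recruited to insert a base across the lesion. Polymerase zeta, with REV3L as catalytic and MAD2L2 (REV7) as accessory subunit, extends from that base, and REV1 holds the inserter and extender together. PRIMPOL can instead start a new strand beyond the lesion. FZR1 encodes an activator of the anaphase-promoting complex, and MAD2L2 is also known to bind this FZR1 protein.

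The stretches before the starts of 4 of these genes are shown, because on the log2(FPKM + 1) scale UBE2A was the member furthest down and RAD18 and REV3L the members furthest up in FZR1 ko, while POLH is a known p53 target. Each is the 250 bases before the gene start given by RefSeq on GRCh38.p14 and equals the hg38 sequence, written in the direction of the gene. Capitals mark matches on either strand to GGGCGG (the GC box) or, in the first run of capitals of RAD18, to the NRF1 motif, a palindrome of 10 bases.
UBE2A, chrX:119574313-119574562, plus strand: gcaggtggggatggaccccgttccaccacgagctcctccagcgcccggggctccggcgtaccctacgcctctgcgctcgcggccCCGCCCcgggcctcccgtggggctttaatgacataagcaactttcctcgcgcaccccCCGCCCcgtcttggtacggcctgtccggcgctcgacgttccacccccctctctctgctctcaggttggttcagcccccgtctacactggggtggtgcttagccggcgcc
RAD18, chr3:8963473-8963722, minus strand: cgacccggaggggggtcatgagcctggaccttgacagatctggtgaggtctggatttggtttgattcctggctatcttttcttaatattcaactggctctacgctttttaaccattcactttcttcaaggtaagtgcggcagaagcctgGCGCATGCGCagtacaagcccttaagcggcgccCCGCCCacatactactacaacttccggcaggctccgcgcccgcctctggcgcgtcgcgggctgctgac
REV3L, chr6:111483712-111483961, minus strand: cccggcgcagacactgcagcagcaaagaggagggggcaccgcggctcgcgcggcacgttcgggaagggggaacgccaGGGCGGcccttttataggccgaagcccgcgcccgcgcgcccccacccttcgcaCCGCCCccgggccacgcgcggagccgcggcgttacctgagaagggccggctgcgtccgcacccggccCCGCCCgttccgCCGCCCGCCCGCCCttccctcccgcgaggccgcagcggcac
POLH, chr6:43575935-43576184, plus strand: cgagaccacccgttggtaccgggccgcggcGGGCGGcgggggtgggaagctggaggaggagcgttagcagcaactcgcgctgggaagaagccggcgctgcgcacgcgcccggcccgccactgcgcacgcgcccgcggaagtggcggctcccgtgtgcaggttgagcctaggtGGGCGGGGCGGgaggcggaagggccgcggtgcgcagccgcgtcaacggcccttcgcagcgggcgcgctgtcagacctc

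A window was found for 9 members, all except UBE2B. The windows of POLI and REV1 overlap in part the span that RefSeq gives the gene. Those of POLK and MAD2L2 lie wholly within that span, so not every motif counted is before the gene start. The GC box lay in 8 of the 9 windows and in 42.3% of the 27305 windows of all genes. Those 27305 windows were not matched to the members in G and C content, gene type or level. The NRF1 motif lay in 1 member, RAD18, and in 1.13% of all windows. The RAD18 window had 56.8% G and C, against 70.0% for UBE2A, 76.0% for POLH and 78.4% for REV3L. The CCAAT box (CCAAT), in 33.0% of all windows, was found in 0 members, as were the cyclic AMP element TGACGTCA (1.77%), the AP-1 motif TGACTCA (4.16%) and the p53 element, as paired half-sites (0.0293%) or as a single half-site (5.53%). An E2F motif, TTTCCCGC, TTTGGCGC, TTTCGCGC or TTTGCCGC, lay in POLI and in 2.79% of all windows, and the cell cycle element TTTGAA in PRIMPOL and in 13.6%. These are matches of letters and say nothing of binding. GC boxes in a row may share bases.

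Among members, the highest level was that of MAD2L2, with 122 FPKM in control and 98.0 in FZR1 ko. UBE2A had 70.2 and 42.6 FPKM, and UBE2B 30.5 and 24.5 FPKM. These 3 genes kept their order in both libraries and stood above every polymerase of the list. POLH, REV1 and RAD18 formed a middle group between 6.96 and 15.3 FPKM, and PRIMPOL, POLK, POLI and REV3L lay below 4 FPKM. MAD2L2 was above 94.8% of the genes kept in control, whereas REV3L was above 10.5% of them. The summed level of the 10 genes was 262 FPKM in control and 207 in FZR1 ko, of which MAD2L2 made up 46.6% and 47.3%.

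**Figure D1:**
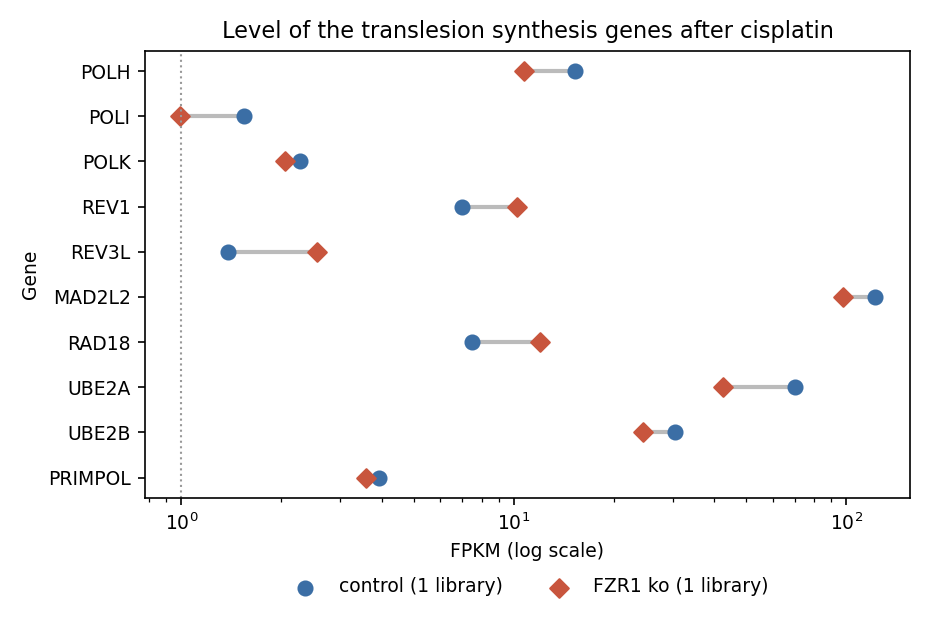
FPKM of each of the 10 genes (log axis) in the control library (circles) and the FZR1 ko library (diamonds), 1 library each, with a dotted line at 1 FPKM. The diamond lies to the right of the circle only for REV1, REV3L and RAD18.

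In FZR1 ko 3 members were higher and 7 were lower than in control, where 49.6% of all genes kept were higher. Each difference is the log2 ratio of FPKM + 1, FZR1 ko over control, in which the added 1 FPKM draws low genes towards 0. Its median over the members was -0.20, beside -0.0048 over all genes kept. Of the 10 members 0 differed at least 2-fold, a size that 13.5% of the 13554 genes reached. At least 1.5-fold apart were 2 members, RAD18 (higher) and UBE2A (lower), where 35.6% of all genes were, 18.0% higher and 17.6% lower. Without a pseudocount 4 members were (REV3L, RAD18, UBE2A and POLI), beside 42.8% of the genes above 0 in both libraries. With the trend of transcript length and GC content removed the 2 members were POLH and UBE2A, beside 34.2% of genes. The median size of the log2 ratio, whatever its sign, was 0.42 both over the members and over all genes kept. By this median the members lay no further from 0 than genes in general.

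**Figure D2:**
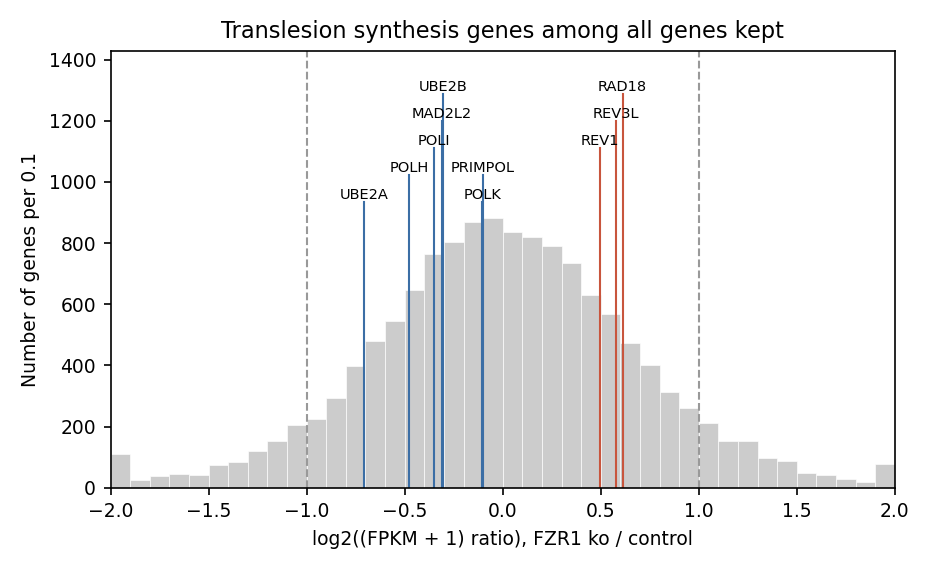
Number of genes kept (grey bars, per 0.1) by log2 ratio of FPKM + 1 in FZR1 ko over control, with lines for the 10 members, blue if lower and red if higher in FZR1 ko, and dashed lines at 2-fold. The outermost bars also hold the genes beyond the axis. All 10 members lie between -0.71 and 0.61, inside the dashed lines.

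The Y-family polymerases differed in direction. POLH, which encodes polymerase eta, the enzyme that copies past ultraviolet and cisplatin lesions and is lost in the variant form of xeroderma pigmentosum, had 15.3 FPKM in control and 10.7 in FZR1 ko (log2 ratio -0.48, and -0.84 with the trend of transcript length and GC content removed). REV1, a deoxycytidyl transferase and scaffold, had 6.96 and 10.2 FPKM (0.49). POLH thus had more than REV1 in control, and in FZR1 ko they were nearly level, with a ratio of REV1 to POLH of 0.455 and 0.953. POLI, which encodes polymerase iota, had 1.54 and 0.99 FPKM (-0.35), so it was just below 1 FPKM in FZR1 ko. Its ratio was -0.64 without a pseudocount and -0.13 with 5 FPKM. POLK, which encodes polymerase kappa, differed little, with 2.28 and 2.05 FPKM (-0.10, and -0.25 with the trend of length and GC content removed). The 4 genes summed to 26.1 FPKM in control and 24.0 in FZR1 ko, with lower POLH and higher REV1 partly offsetting each other. Of all genes kept, 44.5% were at least as far from 0 as POLH and 43.2% at least as far as REV1, both without that trend removed.

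POLH is a p53 target, and a list of 13 other p53 targets was set beside it. This list was chosen with earlier results of these data known. In FZR1 ko 11 were lower and 2 higher, where 49.6% of all genes kept were higher. Their median log2 ratio was -0.65, beside -0.0048 over all genes kept. Of the 13 targets 3 were at least 2-fold lower, as were 6.72% of all genes kept. CDKN1A, which encodes the cell cycle inhibitor p21, had 319 and 77.2 FPKM (-2.03), GDF15, a stress cytokine, 251 and 80.4 FPKM (-1.63), and AEN, a nuclease of apoptosis, 69.1 and 26.6 FPKM (-1.34). SESN1 lay furthest up, with 6.06 and 6.90 FPKM (0.16). Beside the median of the list, -0.65, POLH was at -0.48. With the trend of transcript length and GC content removed the list was at -0.68 and POLH at -0.84. Whether p53 has a part in it was not tested.

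The polymerase zeta genes went opposite ways. REV3L had 1.38 FPKM in control and 2.55 in FZR1 ko, 1.85 times as much. Its log2 ratio was 0.58 with the added 1 FPKM, 0.89 without it and 0.24 with 5 FPKM added. MAD2L2 had 122 and 98.0 FPKM (-0.31). In control the level of MAD2L2 was 88.3 times that of REV3L, and in FZR1 ko 38.4 times. MAD2L2 also works outside polymerase zeta, with shieldin in the choice of break repair and with the FZR1 protein.

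With the pseudocount of 1 FPKM, the RAD18 pathway held the member furthest up and the member furthest down. Without it REV3L was further up than RAD18, and with the trend of length and GC content removed POLH was further down than UBE2A. RAD18 had 7.49 FPKM in control and 11.98 in FZR1 ko (log2 ratio 0.61). UBE2A had 70.2 and 42.6 FPKM (-0.71), and its close relative UBE2B 30.5 and 24.5 FPKM (-0.30). Both E2 genes were lower where their ligase was higher. Their summed level was 13.4 times that of RAD18 in control and 5.61 times in FZR1 ko, and the ratio of UBE2A to UBE2B was 2.30 and 1.74. RAD18 had 0.490 of the POLH level in control and 1.12 of it in FZR1 ko, so their order was swapped. Of all genes kept, 27.1% were at least as far from 0 as UBE2A and 33.4% as RAD18.

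UBE2A and UBE2B encode proteins of 152 residues that share 145 of them (95.4%), and their coding sequences match at 367 of 456 bases (80.5%) in GENCODE 44. The longest run shared by their main transcripts is shown because it bears on whether reads can be told apart. It is 25 bases long and begins at coding base 179 of both genes.
UBE2A and UBE2B, shared run: ctgaagaatatccaaataaaccacc
No stretch of 50 bases was common to both transcripts (0 windows), so reads of that length would differ between them. The read length is not given in the sources used here.

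PRIMPOL had 3.93 FPKM in control and 3.59 in FZR1 ko (log2 ratio -0.10), and 86.9% of all genes kept were at least as far from 0. On this scale PRIMPOL and POLK lay nearest to 0. With the trend of length and GC content removed POLK was at -0.25, further from 0 than UBE2B (-0.19) and MAD2L2 (-0.20).

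Some members share exons with a gene on the opposite strand, and the sources used here do not say whether reads were counted by strand. In GENCODE 44, exons of EIF5B, a translation factor, cover 850 bases (18.0%) of the REV1 transcript. EIF5B had 49.0 FPKM in control and 72.4 in FZR1 ko (log2 ratio 0.56), the direction of REV1. Exons of CENPU, a centromere gene, cover 431 bases (19.9%) of PRIMPOL, with 20.9 and 13.9 FPKM (-0.56). GTPBP2 covers 3.12% of POLH, with 44.4 and 34.7 FPKM (-0.35). Exons of opposite-strand noncoding genes cover 5.38% of REV3L, 5.16% of POLK and 2.41% of POLI, and those of CERT1 cover 0.164% of POLK. The values of these 6 members are uncertain to the extent that such reads were shared.

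Over protein-coding genes the log2 ratio rose with transcript length in the longer classes, with no steady rise below 3000 bases. The median was -0.073 below 1000 bases, -0.069 at 2000 to 3000 bases and 0.041 at 3000 to 5000 bases. Protein-coding genes of at least 5000 bases had a median of 0.22 (2918 genes, 62.6% higher in FZR1 ko), and those of 1000 to 2000 bases one of -0.041 (2179 genes, 46.4% higher). Of the 5 members of at least 5000 bases, RAD18 and REV3L were higher and POLH, POLI and POLK were lower. The 3 members higher in FZR1 ko had a median length of 5857 bases and the 7 lower ones 2241 bases. With the trend of length and GC content removed, RAD18 was at 0.51, REV3L at 0.43, REV1 at 0.41 and UBE2A at -0.63. POLH was then the furthest down of the members and PRIMPOL at 0.011. The part of length in these differences was otherwise not tested.

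The partners of these genes at the fork were compared from 4 lists of 26 genes, of which 25 were kept. Of these 13 were higher and 12 lower in FZR1 ko, with a median log2 ratio of 0.022, and 14 higher and 11 lower with a median of 0.16 with the trend of length and GC content removed. At least 2-fold apart was 1 of the 25, HLTF, beside 13.5% of all genes kept. HLTF, a ligase that extends the ubiquitin chain on PCNA, had 7.43 FPKM in control and 17.8 in FZR1 ko (log2 ratio 1.16), and its relative SHPRH 3.06 and 4.80 FPKM (0.51). Exons of GYG1 cover 31.0% of HLTF on the other strand, and GYG1 had 24.3 and 17.4 FPKM (-0.46), the opposite direction. USP1, which removes ubiquitin from PCNA, had 83.5 and 51.1 FPKM (-0.70), and its partner WDR48 13.4 and 12.8 FPKM (-0.06).

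PCNA itself had 328 FPKM in control and 212 in FZR1 ko (log2 ratio -0.62). PCNA-AS1, which lies within PCNA, was listed at 0 in control and at 24.1 FPKM in FZR1 ko, so their reads are uncertain. RFC1, the large subunit of the clamp loader, had 13.7 and 22.2 FPKM (0.66), while RFC2 to RFC5 lay between -0.43 and 0.31. POLD2 and POLD3, which are subunits of both polymerase delta and polymerase zeta, had 255 and 259 FPKM (0.02) and 14.5 and 16.2 FPKM (0.15). Both log2 ratios were nearer to 0 than those of REV3L and MAD2L2. POLD1, the catalytic subunit of polymerase delta, had 24.7 and 36.9 FPKM (0.56), and POLD4 19.7 and 17.4 FPKM (-0.16). RPA1, of the protein that coats single strands, had 29.4 and 43.8 FPKM (0.56), and SMARCAL1, which remodels stalled forks, 3.86 and 6.44 FPKM (0.61), while RPA3 had 26.04 and 23.21 FPKM (-0.16).

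Genes of the dividing cell were read beside these values. Of 10 proliferation markers 3 were higher and 7 lower in FZR1 ko, with a median log2 ratio of -0.19 and 0 at least 2-fold apart, where 49.6% of all genes kept were higher and 13.5% at least 2-fold apart. With the trend of length and GC content removed 4 were higher and 6 lower, with a median of -0.070. MKI67 had 43.7 and 28.8 FPKM (-0.58, and -0.97 with that trend removed) and TOP2A 36.6 and 43.0 FPKM (0.23 and 0.047). Fewer dividing cells and less RNA per cell cannot be told apart in such samples, and their part in the values of the members was not tested.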

How the data were processed

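RNAseq of control and FZR1 ko cells with cisplatin was analysed, 1 library each. Reads of the BGISEQ-500 were aligned by the authors to the hg38 transcriptome with Bowtie2 and quantified with RSEM. The submitters' processing notes also name Trimmomatic 0.36 and HISAT2 2.1.0 and give Bowtie2 2.2.5, where the paper's methods have another version. The annotation and filters are not given in the sources used here. The authors deposited FPKM per Entrez gene ID, to 2 decimals, which moves the log2 ratio of a member by at most 0.0065. Of 24663 deposited rows 1630 hold no value. Of the other 23033 IDs 99.5% matched a RefSeq symbol of GRCh38.p14.

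A pseudocount of 1 FPKM was added before the log2 ratio, and genes of at least 1 FPKM in at least 1 library were kept. Genes past 2-fold were counted. The count was tried on simulated data in which larger changes were planted in genes well above the filter, with little noise. It therefore does not speak for low genes or for the spread of these data. Other settings were tried for the pseudocount (0.1 or 5 FPKM), the filter (none, or 1 FPKM in both libraries) and the threshold (1.5-fold). Centring on the median and rescaling to the control sum were tried as well. Transcript length and GC content came from the canonical GENCODE 44 transcript, found for 97.0% of the genes kept, and their trend was removed by the median of 10 by 10 quantile groups. All members, FZR1, and members of the lists were named by a rule: those past 2-fold, the highest and lowest, and known partners. Overlapping genes of other strands, and cell type markers and other list members outside the rule, were chosen for naming with values in view. The members and lists were chosen with earlier results of these data known. Python 3.11.15, numpy 2.4.6, pandas 2.3.3 and matplotlib 3.10.9 were used.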

Additional observations from a re-analysis of the deposited data

How the results depend on the processing

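No paired analysis was possible because the 2 conditions share fewer than 2 replicate numbers and no test was made. For the same reason no replicate could be left out. A pseudocount, or leaving it out, cannot turn the direction of a gene, and a filter leaves its ratio as it is. Centring and rescaling moved the members by at most 0.006, and all 20 ratios kept their direction. With a pseudocount of 5 FPKM the median of the members was -0.091 in place of -0.20, as a larger pseudocount pulls low genes towards 0. With 1 FPKM asked of both libraries, which drops POLI, it was -0.105 (9 members). The genes at least 2-fold apart, 1830 of all genes kept, numbered 2818 with a pseudocount of 0.1 FPKM and 453 with 5 FPKM. At 1.5-fold they numbered 4827, with 2 members in place of 0. Leaving out the pseudocount and removing the trend of length and GC content were chosen after seeing the data. With the trend removed 9 of 10 members kept their direction, and the exception was PRIMPOL, at 0.011 in place of -0.10. The unknown depth gives no counting error for any member.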

Other observations

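Other specialised polymerases were not part of the list of members. Of 6 such genes 4 were kept, of which 3 were higher in FZR1 ko, 1 was equal and 0 were at least 2-fold apart, where 49.6% of all genes kept were higher and 13.5% were at least 2-fold apart. POLQ, the polymerase of microhomology end joining, had 3.76 FPKM in control and 4.86 in FZR1 ko (log2 ratio 0.30), and POLL, of end joining and base excision repair, 5.39 and 7.34 FPKM (0.38). POLB, the main polymerase of base excision repair, had 15.7 FPKM in both libraries. DNTT, which is made in lymphoid precursors, was listed at 0 in both.

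MAD2L2 also has partners outside polymerase zeta, and 6 of the 7 listed had a value. Of these 4 were higher and 2 lower in FZR1 ko, with a median log2 ratio of 0.30, and 0 were at least 2-fold apart, beside the same shares over all genes kept. With the trend of transcript length and GC content removed 3 were higher and 3 lower, with a median of 0.14, as TP53BP1 went from 0.27 to -0.094. SHLD1 and SHLD2, subunits of shieldin, had 2.01 and 2.77 FPKM (0.32) and 6.68 and 9.04 FPKM (0.39). CHAMP1, which binds MAD2L2 at chromosomes, had 43.6 and 27.1 FPKM (-0.66), and TRIP13, which remodels MAD2L2, 67.7 and 86.6 FPKM (0.35). With 1 library per condition these values have no replicate check.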
